A study of Mus musculus with 8 samples.

Results

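The CD47-SIRPα checkpoint is described here through 9 genes, which were found by symbol among the 54309 genes of the count table: the antibody's target Cd47, its receptor gene Sirpa, its secreted ligand gene Thbs1, the phosphatase genes Ptpn6 and Ptpn11, the modifying enzyme gene Qpctl, a second inhibitory surface protein gene, Cd24a, and the opposing signal Calr with its receptor gene Lrp1. They were measured in whole liver of male C57BL/6J mice fed a fructose, palmitate and cholesterol diet for 16 weeks, which provokes steatohepatitis. From week 8 to week 16 the animals received control IgG or an antibody against CD47 by intraperitoneal injection, 200 µg per mouse, so both groups share strain, sex and diet, and no mice on a control diet were analysed here. There were 4 libraries of polyadenylated RNA per treatment, called IgG 1 to 4 and antiCD47 1 to 4, out of 7 to 8 mice per treatment in the design text. The labels do not say which animal gave which library or how old the mice were, so p-values measure the spread between these libraries. The series title names the question: what blocking this axis does to the clearance of necroptotic hepatocytes by liver macrophages and to fibrosis.

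CD47 is a surface protein carried by most cells. When it binds SIRPα on a macrophage, tyrosine motifs in the SIRPα tail are phosphorylated and recruit the phosphatases SHP-1 and SHP-2, which dampen engulfment. Calreticulin exposed on the surface of a stressed or dying cell works the other way, through LRP1 on the phagocyte. The antibody blocks the protein, so the Cd47 mRNA is no test of whether blockade worked.

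Total counts lay between 43691472 and 55477484 per library. The defining hepatocyte markers were present in every library, with a summed level of 62540 to 68370 CPM (counts scaled to a common library size after TMM normalization) in IgG and 65360 to 76640 CPM in antiCD47. All 9 genes passed the filter on low counts, and their counts ran from 202 for Thbs1 in its lowest library to 53243 for Calr in its highest. Differences below are log2 fold changes, antiCD47 minus IgG, from the quasi-likelihood test of edgeR, which is two-sided. Adjusted p-values follow Benjamini and Hochberg across all 15472 tested genes, and a gene is said to rise or fall where its adjusted p is under 0.05.

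Between genes, levels can be compared only per length of transcript. With the median protein-coding transcript as length, the median over the 8 libraries in CPM per kilobase was 287.1 for Calr, 161.4 for Lrp1, 58.7 for Cd47, 27.5 for Ptpn6, 18.5 for Cd24a, 16.0 for Sirpa, 15.1 for Ptpn11, 3.89 for Qpctl and 1.16 for Thbs1. The library ranges of Ptpn6 and Cd24a, of Cd24a and Sirpa, and of Sirpa and Ptpn11 overlapped, and those of the other neighbours did not. The longest transcript as length left Calr first and Ptpn11, Qpctl and Thbs1 last, but gave 27.0 for Lrp1, 13.1 for Ptpn6 and 14.2 for Cd47 beside 14.7 for Sirpa. The median and longest lengths were 2492 and 14888 bases for Lrp1, 1271 and 5250 for Cd47, and 1099.5 and 2308 for Ptpn6. A median over short annotated transcripts can inflate a level per kilobase, so 161.4, 58.7 and 27.5 may be too high. Calr mRNA was therefore the most abundant of the 9 under both lengths, and the order of Cd47 and Sirpa depended on the length used.

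**Figure D1:**
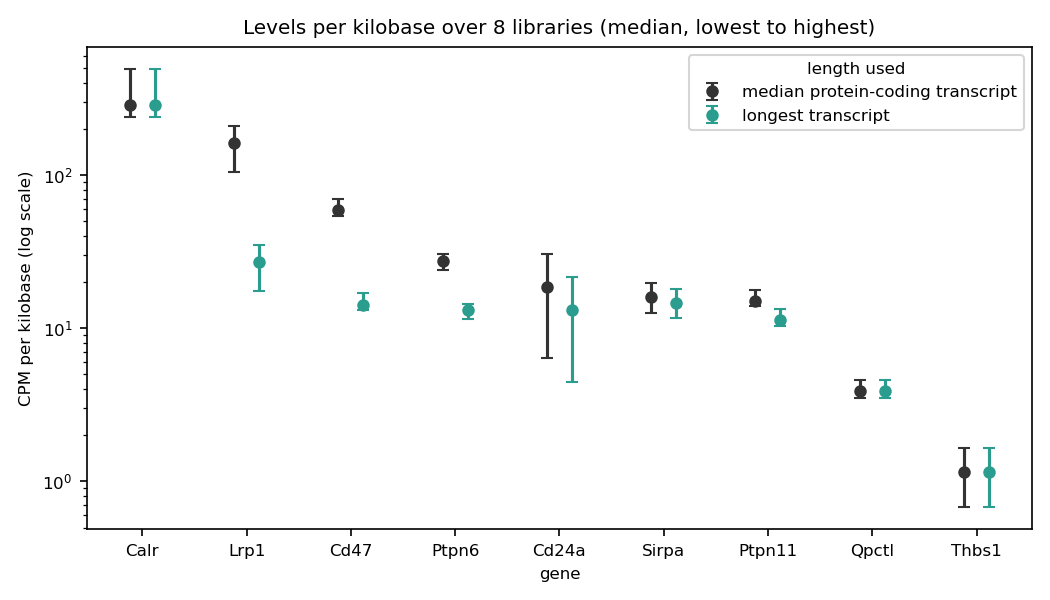
Level of each of the 9 genes in CPM per kilobase (y axis, log scale) with 2 choices of transcript length; points are medians over 8 libraries and bars run from the lowest to the highest library. Calr is highest and Thbs1 lowest with either length, while Lrp1 (161.4 or 27.0) and Cd47 (58.7 or 14.2) move with it.

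Of the 9 genes 1 fell, Cd24a, and none rose. Over all genes tested 10.8% passed in either direction, 5.4% lower and 5.44% higher, so 1 of 9 is close to that background. At an unadjusted p under 0.05 there were 3 of the 9 (Cd24a, Lrp1 and Ptpn11), against 32.5% of all genes. By DESeq2 and by limma voom 2 of the 9 passed, Cd24a lower and Lrp1 higher, where 20.5% and 11.3% of all genes did. The same count of 2 was reached with no low count filter (6.31% of all genes), voom quality weights (28%), the replicate number as a block (15.7%) and an adjusted p of 0.1 (23.1%). The median log2 fold change was 0.09 over the 9 genes and -0.01 over all genes tested. Scaling by library totals alone moved the median of all genes to -0.19 and their calls from 842 higher and 836 lower to 428 higher and 3153 lower.

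**Figure D2:**
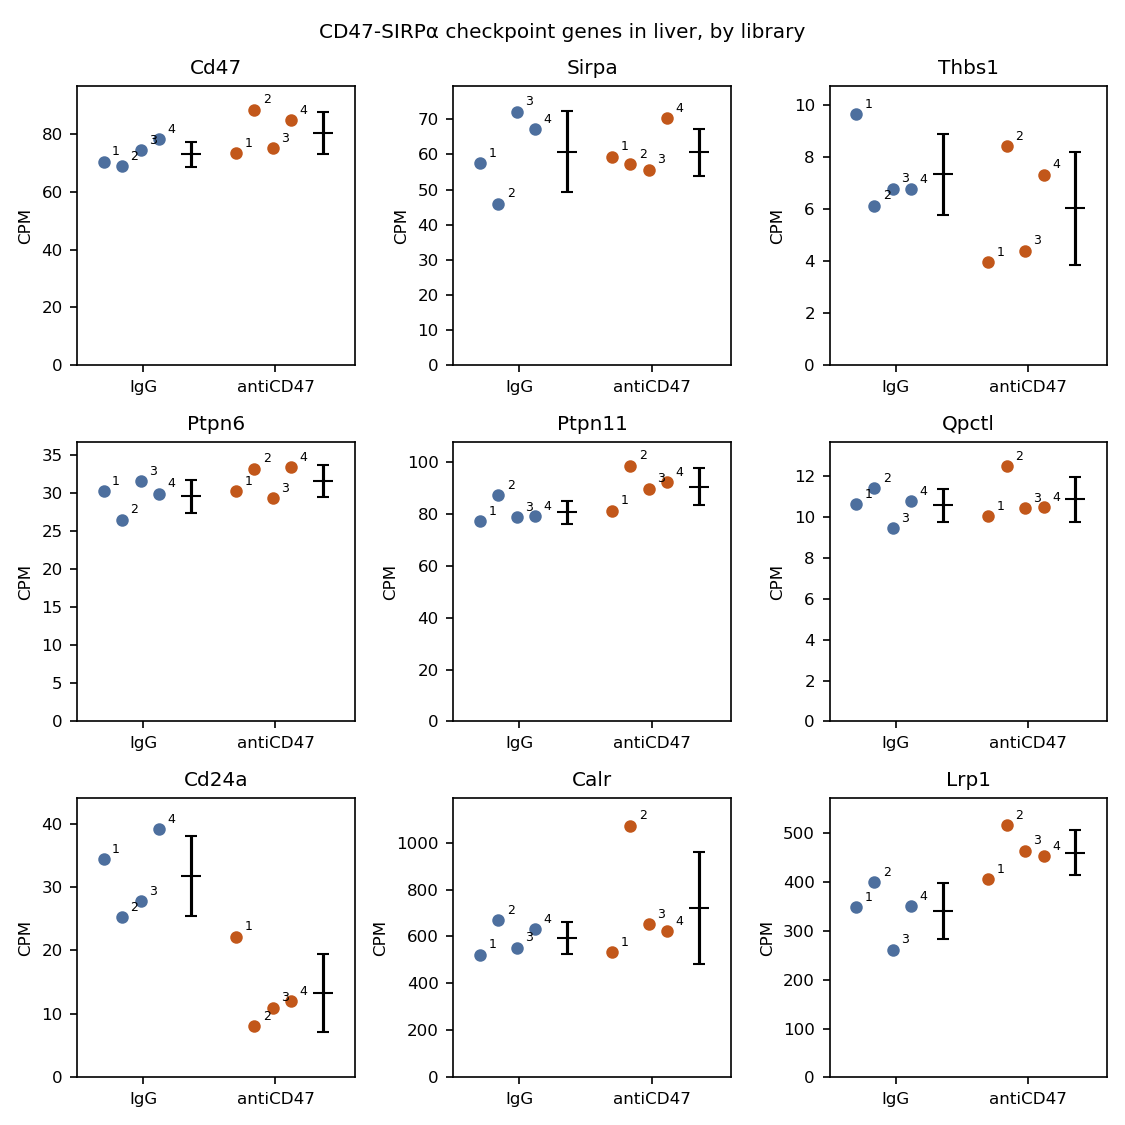
Levels of the 9 genes in CPM (y axes, from 0) in 4 IgG and 4 antiCD47 libraries; points are libraries with their number, and the black bar is the mean ± SD. The groups are separate for Cd24a, at 25.3 to 39.2 CPM in IgG and 8.12 to 22.2 CPM in antiCD47, and for Lrp1, and they overlap in the other panels.

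The target and its receptor did not pass the test. Cd47 was at 70.4, 68.7, 74.2 and 78.0 CPM in IgG 1 to 4 and at 73.2, 88.3, 74.95 and 84.6 CPM in antiCD47 1 to 4. The groups overlapped, with antiCD47 2 and 4 above every IgG library. Its log2 fold change was 0.14 ± 0.08 (SE; edgeR adjusted p = 0.24), with a 95% interval from -0.03 to 0.31, and it was -0.05 with scaling by library totals alone. The interval therefore holds folds from 0.977 to 1.24. Sirpa, the inhibitory receptor of macrophages and other myeloid cells, was at 57.5, 46.0, 72.2 and 67.2 CPM in IgG and at 59.3, 57.1, 55.6 and 70.4 CPM in antiCD47. The IgG libraries spread more widely, with a coefficient of variation of 18.99% against 11.0% in antiCD47, and enclosed all 4 antiCD47 libraries. The Sirpa log2 fold change was 0.00 with an SE of 0.14 (edgeR adjusted p = 0.993; 95% interval -0.31 to 0.30). Changes in Sirpa mRNA of more than about 1.23-fold upward or below 0.809-fold lie outside that interval.

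Kupffer cells, which carry SIRPα, had higher marker levels in antiCD47. Of 8 Kupffer cell markers 7 rose, against 5.44% of all genes tested. The 8 summed to 171.9 to 319.5 CPM in IgG and 343.2 to 633.2 CPM in antiCD47. The 7 markers of recruited macrophages summed to 102.7 to 158.5 CPM in IgG and 70.4 to 136.1 CPM in antiCD47, so the groups overlapped. No marker of either list was at 0. The part of these cells in the Sirpa level was not tested. Whole liver cannot separate fewer cells of a type from less RNA per cell, here or in any result that follows. The 3 genes whose log2 CPM followed Sirpa most closely over the 8 libraries were C3ar1 (Pearson r = 0.987), the receptor gene for complement fragment C3a, Cd300c2 (0.984) and Myo1f (0.97), a myosin of leukocytes. These coefficients describe libraries that share depth and treatment. The SIRP relatives Sirpb1a, Sirpb1b and Sirpb1c, receptors that signal through an activating adaptor, were all under 3 CPM in all 8 libraries and did not pass (Sirpb1c -0.21, Sirpb1a 0.14 on the log2 scale). None of these 3 passed an unadjusted p under 0.05 by edgeR, DESeq2 or limma voom. SIRP genes have closely similar extracellular domains, so the split of reads between them is uncertain.

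For Cd47, the closest genes over the 8 libraries were Smc3 (Pearson r = 0.976), a cohesin subunit, Synj1 (0.976) and Ext1 (0.974), an enzyme of heparan sulfate synthesis. Their log2 fold changes were 0.16, 0.20 and 0.19 (edgeR adjusted p = 0.24, 0.155 and 0.139).

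Qpctl encodes the Golgi glutaminyl cyclase that turns the N-terminal glutamine of CD47 into pyroglutamate, a change that strengthens SIRPα binding. It was at 9.46 to 11.4 CPM in IgG and 10.05 to 12.5 CPM in antiCD47, so the groups overlapped. The difference was 0.04 on the log2 scale, with a 95% interval from -0.18 to 0.26 (edgeR adjusted p = 0.801). Its sign was negative with library totals (-0.15) and with upper quartile scaling (-0.02). Closest to Qpctl over the 8 libraries were Tap2 (Pearson r = 0.972), a subunit of the peptide transporter for MHC class I, Crybg1 (0.97) and Aste1 (0.951). Qpct, the secreted paralog, fell: it was at 11.6, 11.9, 13.5 and 14.0 CPM in IgG and at 9.40, 9.20, 8.72 and 10.9 CPM in antiCD47. No antiCD47 library reached the lowest IgG library. This was a change of -0.42 ± 0.10 on the log2 scale (SE; edgeR adjusted p = 0.0327).

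Thbs1 encodes thrombospondin-1, a matricellular protein that platelets, endothelium and fibroblasts secrete and that binds CD47. Its level was 9.63, 6.13, 6.78 and 6.76 CPM in IgG and 3.97, 8.40, 4.40 and 7.32 CPM in antiCD47. AntiCD47 1 and 3 lay below all IgG libraries, and antiCD47 2 and 4 lay among them. The log2 fold change was -0.28 ± 0.25 (SE; edgeR adjusted p = 0.457), with a 95% interval from -0.84 to 0.27. Single libraries moved the Thbs1 value. Leaving out IgG 1, antiCD47 1 or antiCD47 3 gave -0.12, -0.13 and -0.16, and leaving out antiCD47 2 gave -0.49. It was -0.47 with library totals alone, -0.58 with voom quality weights and -0.56 without IgG 2 and antiCD47 2, and its adjusted p was 0.0703 to 0.789 over the 19 alternatives. With 202 to 458 counts per library it had the fewest counts of the 9 genes in every library but antiCD47 2, where Cd24a had 403, and its coefficient of variation was 36.04% in antiCD47. Platelet markers, 3 of 7 of which could be tested, overlapped in their sum between the groups, at 4.26 to 5.26 and 4.53 to 6.57 CPM. The genes closest to Thbs1 over the 8 libraries were Igfbp2 (Pearson r = 0.935), a binding protein of insulin-like growth factors, Kcnn1 (0.921) and Syt1 (0.916).

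Of 4 tested genes of other thrombospondins and collectins 3 fell, against 5.4% of all genes tested. This list and those below were chosen with earlier results of these data known, so such counts are no independent evidence. Thbs2 fell from 9.52, 8.26, 9.18 and 15.1 CPM in IgG to 6.32, 2.82, 4.71 and 4.93 CPM in antiCD47 (log2 -1.16 ± 0.25 SE; edgeR adjusted p = 0.028). Thbs3 fell from 0.873 to 1.64 CPM down to 0.347 to 0.573 CPM (log2 -1.29; edgeR adjusted p = 0.0272). In neither gene did the groups overlap, and the same held for 19.6% of all genes tested. Whether Thbs1 differed from Thbs2 and Thbs3 in its response was not tested. Of the 8 stellate cell markers 4 fell, against 5.4% of all genes tested. The 8 summed to 505.0 to 755.6 CPM in IgG and 233.7 to 378.0 CPM in antiCD47. The part of stellate cells in the Thbs2 and Thbs3 values was not tested. Sftpd, the gene of a collectin that also binds SIRPα, had 2.66 to 5.01 CPM in IgG and 1.13 to 2.085 CPM in antiCD47 and fell (log2 -1.49; edgeR adjusted p = 0.0164). Thbs4, with 11 counts over the IgG and 19 over the antiCD47 libraries, and Comp, with 8 and 3, were too low to test.

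SHP-1 and SHP-2, encoded by Ptpn6 and Ptpn11, are the SH2 domain phosphatases that dock on the SIRPα tail; SHP-1 is largely a protein of blood cells, and SHP-2 is found in most cells. Ptpn6 was at 26.5 to 31.6 CPM in IgG and 29.3 to 33.4 CPM in antiCD47 (log2 0.09 ± 0.08 SE; edgeR adjusted p = 0.42; 95% interval -0.08 to 0.27). Ptpn11 was at 77.2, 87.2, 78.6 and 79.0 CPM in IgG and at 81.2, 98.6, 89.7 and 92.3 CPM in antiCD47. AntiCD47 2, 3 and 4 were above all IgG libraries, and antiCD47 1 was below IgG 2. The difference, 0.17 ± 0.07 (SE), had an unadjusted p of 0.0462 and did not pass after adjustment (edgeR adjusted p = 0.147), nor did it pass in the 19 alternatives, with adjusted p from 0.05085 to 0.851. With library totals alone Ptpn6 was at -0.09 and Ptpn11 at -0.02. The genes that followed Ptpn11 most closely over the 8 libraries were Rnf10 (Pearson r = 0.993), Mlkl (0.984), the effector of necroptosis, and Arhgef12 (0.983). For Ptpn6 they were Lyz2 (0.967), lysozyme of myeloid cells, Pacc1 (0.966) and Bmi1 (0.957).

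Among 12 other signalling genes that act beside SIRPα, 4 rose and 1 fell, against 5.44% and 5.4% of all genes tested. Skap2, an adaptor that binds SIRPα, rose from 26.5 to 28.0 CPM in IgG to 32.7 to 38.97 CPM in antiCD47 (log2 0.43 ± 0.07 SE; edgeR adjusted p = 0.016). With library totals alone Skap2 was at 0.24 and still passed. The adaptor gene Grb2 rose (log2 0.35; edgeR adjusted p = 0.0454), but it did not pass with library totals alone (0.16; adjusted p = 0.135) or upper quartile scaling (0.28; adjusted p = 0.0564). In the same list the myeloid Src-family kinase gene Fgr rose by 1.04 on the log2 scale. Src itself, the kinase found in most tissues, fell from 6.24 to 7.40 CPM to 3.40 to 4.43 CPM (log2 -0.73 ± 0.12 SE; edgeR adjusted p = 0.016). In these 4 genes, which were named because they passed, the groups did not overlap. The same held for 19.6% of all genes tested. Of 8 markers of neutrophils, cells in which Fgr is also active, 7 were tested and all 7 rose, against 5.44% of all genes tested. The 8 summed to 6.59 to 8.82 CPM in IgG and 15.3 to 32.9 CPM in antiCD47. Kupffer cell markers rose as given above. The part of both cell types in these values was not tested.

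Cd24a was the member that fell. It encodes a small, heavily glycosylated, lipid-anchored protein of immature B cells, neutrophils, red cell precursors and duct epithelium, and it restrains phagocytes through a Siglec receptor. Its level was 34.4, 25.3, 27.8 and 39.2 CPM in IgG and 22.2, 8.12, 11.0 and 12.02 CPM in antiCD47. Intronless copies of Cd24a exist in the mouse genome, so how its reads were shared is uncertain. All 4 antiCD47 libraries lay below the lowest IgG library, antiCD47 1 being the nearest to them. The mean went from 31.7 ± 6.31 to 13.3 ± 6.12 CPM (SD, n = 4 each), a fold of 0.421. On the log2 scale this was -1.25 ± 0.28 (SE), with a 95% interval from -1.87 to -0.63 (edgeR adjusted p = 0.028). In the authors' deposited table Cd24a was the only one of the 9 with an adjusted p under 0.05 (0.000169, with a negative sign), where 18.4% of the listed genes passed. The call was lost on leaving out IgG 1 (edgeR adjusted p = 0.0758), IgG 3 (0.0688), IgG 4 (0.0844) or antiCD47 3 (0.0883), fits in which 174, 92, 2 and 21 of all genes passed. Its log2 fold change lay between -1.61 and -1.07 when each library was left out in turn, the lowest being without antiCD47 1.

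Groups that do not overlap were seen in 2 of the 9 genes, Cd24a and Lrp1, against 19.6% of all genes tested (10.1% lower, 9.51% higher). The 3 genes closest to Cd24a over the 8 libraries were Chrnb1 (Pearson r = 0.994), Fbln2 (0.993), a matrix glycoprotein, and Cldn7 (0.992), a tight junction protein of duct epithelium. Cldn7 is also on the list of cholangiocyte markers, and each of the 3 fell (log2 -1.22, -0.80 and -1.22). They were picked for following Cd24a across both treatments, so their fall is no independent support.

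**Figure D3:**
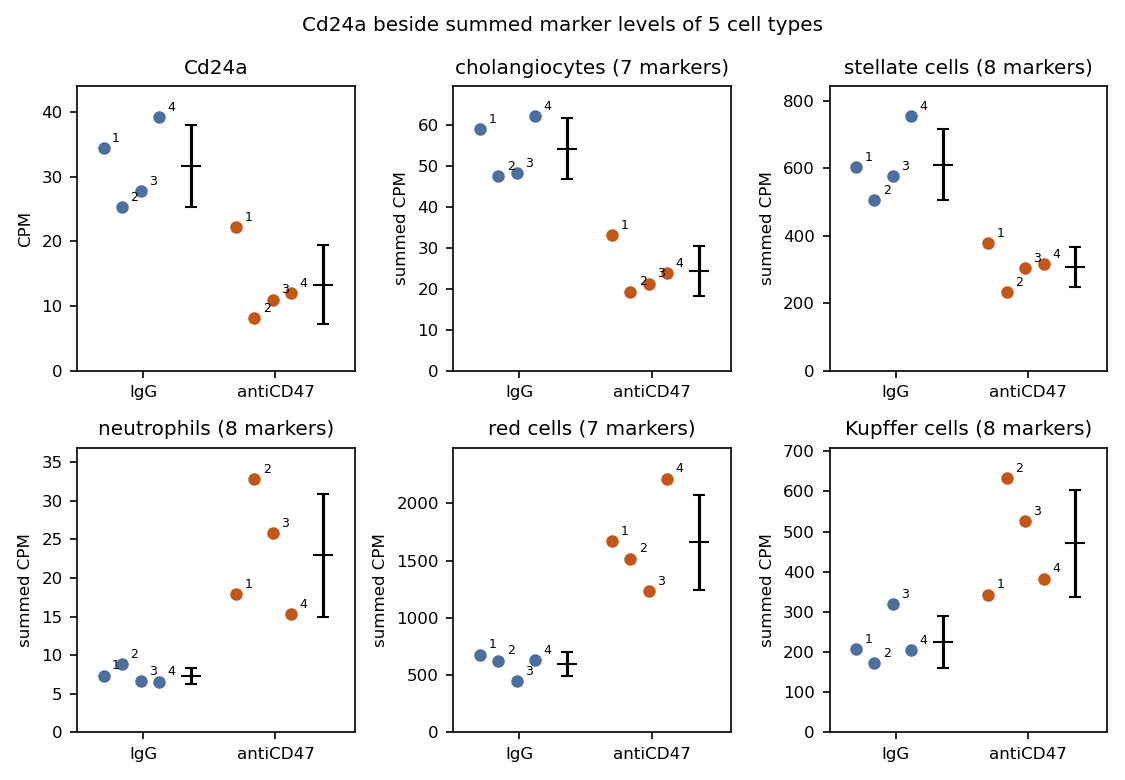
Cd24a in CPM and the summed CPM of marker genes for 5 cell types (y axes, from 0) in 4 IgG and 4 antiCD47 libraries; points are libraries with their number, and the black bar is the mean ± SD. Cd24a, cholangiocyte and stellate cell sums are lower in all antiCD47 libraries, and neutrophil, red cell and Kupffer cell sums are higher.

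Markers of several cell types that carry Cd24a changed in these livers, some lower and some higher. Of 7 cholangiocyte markers 6 fell, against 5.4% of all genes tested. The 7 summed to 47.5 to 62.2 CPM in IgG and 19.4 to 33.2 CPM in antiCD47. Cd24a amounted to 53.3 to 63.0% of that sum in IgG and to 66.8, 41.9, 51.6 and 50.3% in antiCD47 1 to 4. The groups overlapped on this ratio through antiCD47 1 alone, and antiCD47 2, 3 and 4 lay below every IgG library. Against the neutrophil markers, which rose, Cd24a went from 286.6 to 594.8% of the sum down to 24.7 to 123.6%. Red cell markers rose in 7 of 7, against 5.44% of all genes tested. They summed to 444.6 to 680.1 CPM in IgG and 1231 to 2215 CPM in antiCD47. None of the 5 B cell markers passed, against 10.8% of all genes tested. Their sum was 12.1 to 33.4 CPM in IgG and 32.1 to 64.8 CPM in antiCD47, with overlap between IgG 3 and antiCD47 3. Cd24a went from 4.04 to 6.26% of the red cell sum in IgG down to 0.535 to 1.33% in antiCD47. Against the B cell sum it went from 83.2 to 324.2% down to 15.8 to 37.5%. The part of any of these cell types in the Cd24a value was not tested. Siglecg, which encodes the mouse receptor for CD24, was under 0.3 CPM in all libraries (log2 -0.25; edgeR adjusted p = 0.704). Selp, the gene of P-selectin, another partner of CD24, was at 1.13 to 1.71 CPM in IgG and at 1.40, 6.79, 3.03 and 2.85 CPM in antiCD47, and did not pass (log2 1.22 ± 0.41 SE; edgeR adjusted p = 0.0778). By DESeq2 and with voom quality weights Selp passed as higher, and by limma voom it did not. In the authors' deposited table its adjusted p was 0.0157, with a positive sign.

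Of 10 other inhibitory receptors and ligands of engulfment 4 rose, against 5.44% of all genes tested, in a list chosen with earlier results known. Pirb, a receptor for MHC class I with inhibitory tail motifs, rose from 7.70 to 10.5 CPM to 12.2 to 23.4 CPM (log2 0.83 ± 0.20 SE; edgeR adjusted p = 0.0328). Cd300lf, a lipid-sensing inhibitory receptor, rose by 1.15, Lilrb4a by 1.07 and Cd274, the gene of PD-L1, by 1.41 on the log2 scale. The Lilrb4a call was lost with library totals alone (adjusted p = 0.0556) and upper quartile scaling (0.0544), and the Cd274 call by limma voom (0.069). Pirb and Lilrb4a belong to families of close copies, so their read assignment is uncertain. For Lilrb4a and Cd274 the groups overlapped through antiCD47 4 and antiCD47 1 respectively. The Kupffer cell and neutrophil markers that rose in the same libraries were not tested for their part in these values. B2m, the light chain of MHC class I, was at 1598 to 1983 CPM in IgG and 1633 to 1731 CPM in antiCD47.

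Lrp1 encodes a very large endocytic receptor that is abundant in hepatocytes and also present on macrophages, where it takes up cells that display calreticulin. It was at 347.8, 399.5, 261.7 and 350.5 CPM in IgG and at 405.0, 516.6, 463.8 and 452.6 CPM in antiCD47. Every antiCD47 library was above every IgG library, although IgG 2 and antiCD47 1 differed by less than the spread within either group. The mean went from 339.9 ± 57.3 to 459.5 ± 45.8 CPM (SD, n = 4 each), and the log2 fold change was 0.44 ± 0.13 (SE; 95% interval 0.15 to 0.72). The difference did not pass (edgeR adjusted p = 0.0547). It passed in 7 of 19 alternatives, among them DESeq2 (adjusted p = 0.0108) and limma voom (0.0498), and without IgG 2 (0.0389) or antiCD47 1 (0.0307). In the authors' deposited table the adjusted p of Lrp1 was 0.333, with the same sign as here. Summed hepatocyte markers overlapped between the groups and Kupffer cell markers were higher in antiCD47; their part in the Lrp1 level was not tested. The genes closest to Lrp1 over the 8 libraries were Gtf3c1 (Pearson r = 0.984), Eif5b (0.984) and Marchf6 (0.983).

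Calr encodes calreticulin, a calcium-binding chaperone of the endoplasmic reticulum that becomes an engulfment signal at the cell surface. The mRNA does not show where the protein is. Calr was at 522.4, 670.5, 552.3 and 631.5 CPM in IgG and at 534.5, 1072, 653.6 and 622.4 CPM in antiCD47. Only antiCD47 2 lay above the IgG libraries, and the other 3 lay among them. The difference was 0.28 on the log2 scale, with a 95% interval from -0.16 to 0.72 (edgeR adjusted p = 0.352), and it was 0.02 on leaving out antiCD47 2.

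Chaperones of the same compartment were highest in the same library as Calr. The 3 closest genes over the 8 libraries were Sart1 (Pearson r = 0.991), Sel1l (0.989), a component of protein degradation in the endoplasmic reticulum, and Pdia3 (0.983), a disulfide isomerase that works with calreticulin. Hspa5, the gene of the chaperone BiP, was at 582.4 to 748.7 CPM in IgG and at 658.1, 2249, 1064 and 872.1 CPM in antiCD47. It did not pass (log2 0.88 ± 0.33 SE; edgeR adjusted p = 0.0989), nor did Hsp90b1 (0.52), Pdia3 (0.32) or Canx (0.26), the membrane-bound relative of Calr. In all 5 genes antiCD47 2 was the highest of the 8 libraries. Unlike Calr, these chaperone genes were also above every IgG library in antiCD47 3 and 4. Hsp90b1 was at 633.6 to 751.3 CPM in IgG and at 689.3, 1581, 875.8 and 843.1 CPM in antiCD47 1 to 4. Pdia3 was at 399.8 to 467.6 CPM and at 407.5, 774.2, 491.2 and 492.8 CPM. Canx was at 328.2 to 385.9 CPM and at 363.4, 535.4, 407.5 and 421.8 CPM.

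**Figure D4:**
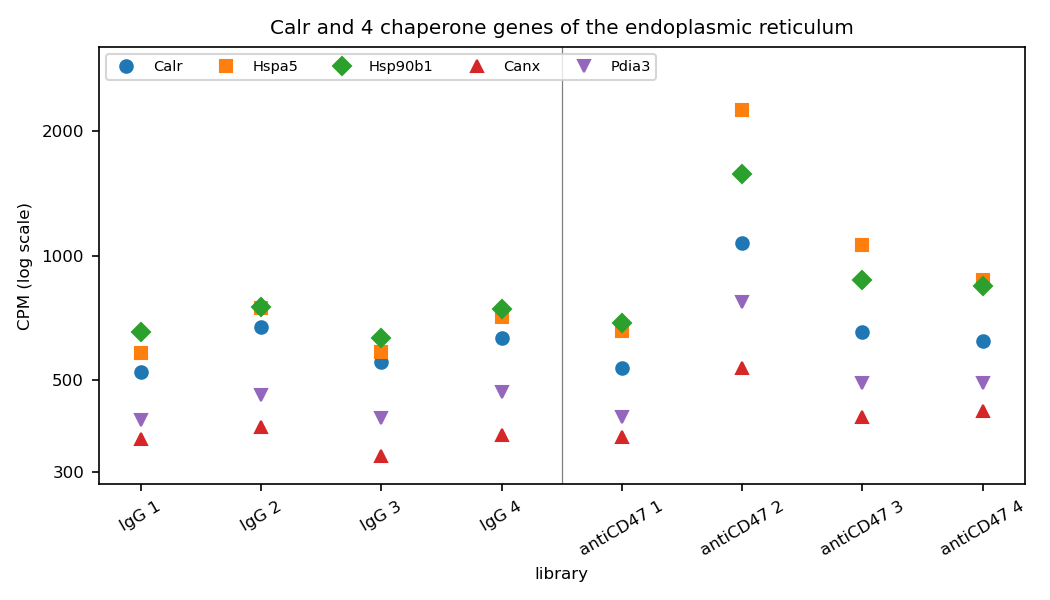
Levels of Calr and 4 chaperone genes of the endoplasmic reticulum in CPM (y axis, log scale) in each of the 8 libraries (x axis); each symbol is 1 gene in 1 library. All 5 genes are highest in antiCD47 2, where Calr is at 1072 CPM and Hspa5 at 2249 CPM, while antiCD47 1 is within the IgG range for each. AntiCD47 3 and 4 are above the IgG range for the 4 chaperone genes and within it for Calr.

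The promoters of these genes are shown as background, because a known element of the unfolded protein response can be read in them. The chaperone genes were chosen after their values were seen, so the matches are no test of these data. The element is CCAAT and CCACG with any 9 bases between them, and it was searched on both strands in the 250 bases before each start site of the RefSeq promoter table (GRCm38.p6, an older build than the GRCm39 of the submitters' notes). Of 32851 promoters 37 held it, or 0.113%. Of the 9 checkpoint genes 5 had an entry in that table (Cd47, Ptpn6, Ptpn11, Calr and Lrp1), and the element was found in Calr. It was also found in Hspa5, Hsp90b1 and Canx, and these exact letters were not found in the Pdia3 window. The windows are chr8:84846932-84847181 on the minus strand for Calr, chr2:34771840-34772089 on the plus strand for Hspa5, chr10:86705445-86705694 on the minus strand for Hsp90b1 and chr11:50325674-50325923 on the minus strand for Canx. Each is printed 5′ to 3′ along its gene, with the element in capitals:
Calr: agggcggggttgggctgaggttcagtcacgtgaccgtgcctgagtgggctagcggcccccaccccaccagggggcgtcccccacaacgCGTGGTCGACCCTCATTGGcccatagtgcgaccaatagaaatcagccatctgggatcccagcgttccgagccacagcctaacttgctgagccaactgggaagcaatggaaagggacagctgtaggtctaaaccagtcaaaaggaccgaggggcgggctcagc
Hspa5: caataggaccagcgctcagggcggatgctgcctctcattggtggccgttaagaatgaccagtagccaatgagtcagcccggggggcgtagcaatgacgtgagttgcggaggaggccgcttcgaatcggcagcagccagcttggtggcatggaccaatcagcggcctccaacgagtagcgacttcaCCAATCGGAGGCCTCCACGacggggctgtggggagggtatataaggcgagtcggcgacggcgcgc
Hsp90b1: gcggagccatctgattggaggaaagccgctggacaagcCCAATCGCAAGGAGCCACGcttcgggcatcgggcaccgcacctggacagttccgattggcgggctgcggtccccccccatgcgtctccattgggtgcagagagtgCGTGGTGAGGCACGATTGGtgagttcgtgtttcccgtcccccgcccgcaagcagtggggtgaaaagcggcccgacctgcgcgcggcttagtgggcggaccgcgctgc
Canx: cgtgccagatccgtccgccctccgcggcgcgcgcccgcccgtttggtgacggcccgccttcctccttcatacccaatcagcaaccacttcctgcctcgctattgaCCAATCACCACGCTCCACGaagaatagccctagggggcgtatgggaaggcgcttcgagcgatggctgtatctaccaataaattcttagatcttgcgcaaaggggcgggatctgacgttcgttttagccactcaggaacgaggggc
In Calr the element lies on the opposite strand and ends 143 bases before the start site. In Hspa5 and Canx it lies on the gene's own strand, 46 and 126 bases before the start, and Hsp90b1 holds 2 copies, 1 on each strand, at 193 and 88 bases. A match of letters is a description and was not tested for binding or for a part in the levels.

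Among the 10 genes that handle calreticulin and LRP1 none passed by edgeR, against 10.8% of all genes tested. At an unadjusted edgeR p under 0.05 there were 8, 6 higher and 2 lower, against 32.5% of all genes. By DESeq2 2 passed and by limma voom 0, against 20.5% and 11.3% of all genes. C1qb and C1qa, chains of the complement protein C1q that bridges calreticulin and the phagocyte, were nearest (log2 0.27 and 0.24; edgeR adjusted p = 0.0719 and 0.0859). C1qa was at 79.8 to 102.5 CPM in IgG and 105.2 to 111.9 CPM in antiCD47. Of the 3 phagocyte partners that promote engulfment 1 rose, against 5.44% of all genes. This was Itgam, the CD11b integrin gene, from 3.98 to 6.83 CPM to 7.28 to 12.6 CPM (log2 0.90, edgeR adjusted p = 0.0302). Neutrophils and macrophages carry this integrin, and the part of their markers in its level was not tested. Of the 8 partners of CD47 in the membrane and inside the cell 5 were tested and 1 rose, against 5.44% of all genes. It was Itgb3, the β3 integrin gene, from 3.18 to 3.93 CPM to 4.35 to 9.22 CPM (log2 0.91, edgeR adjusted p = 0.0308). Rhag, Rhd and Epb42, which sit with CD47 in the red cell membrane, had 1, 0 and 7 counts over the IgG libraries and 6, 9 and 39 over the antiCD47 libraries, too few to test.

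**Figure D5:**
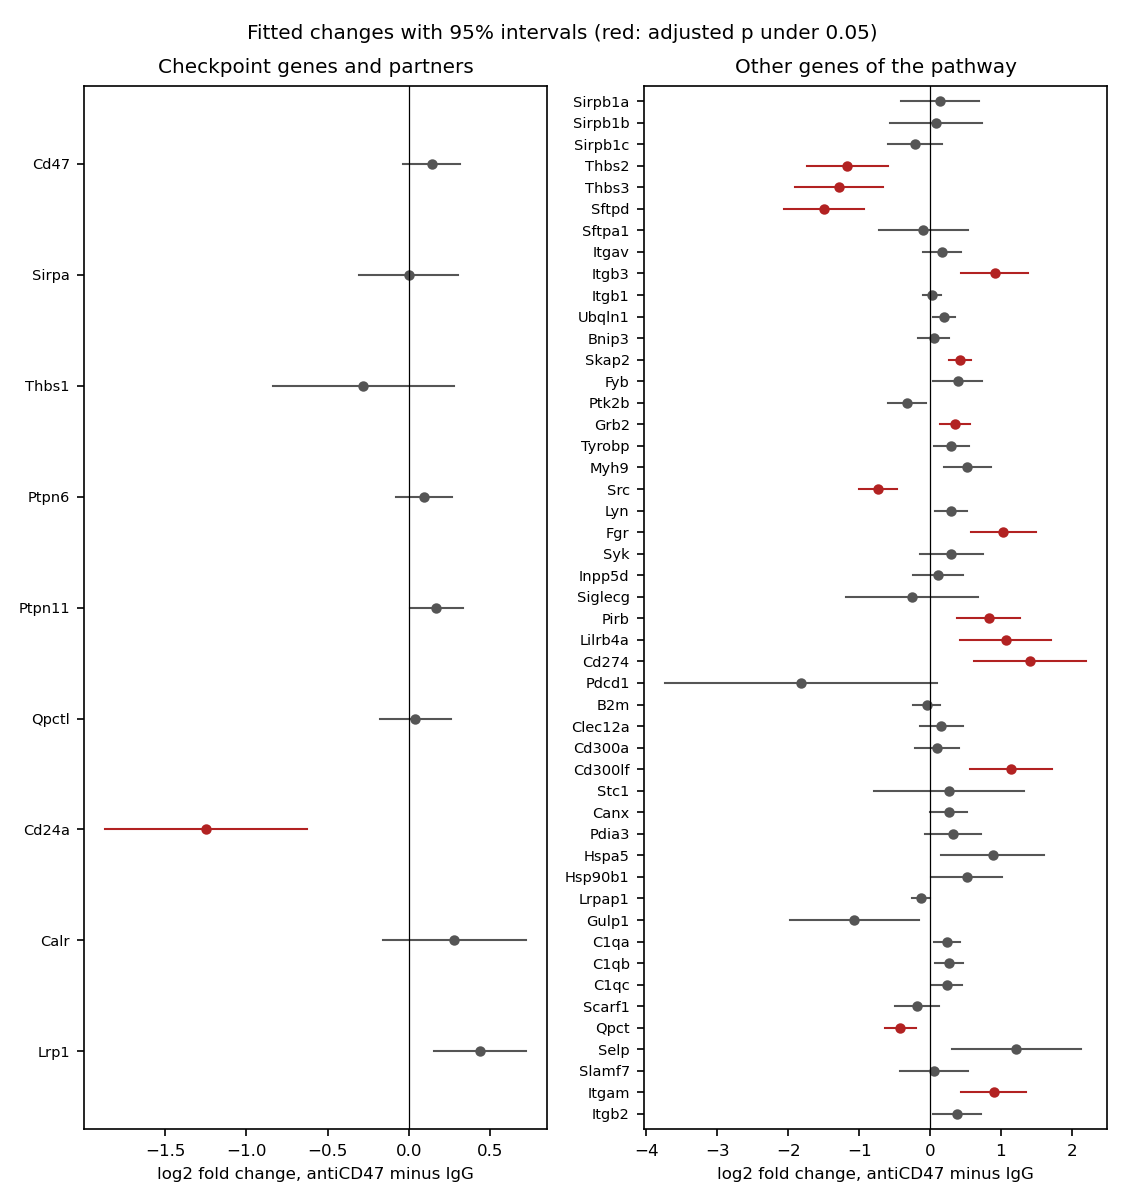
Log2 fold changes, antiCD47 minus IgG (x axes), with 95% intervals for the 9 checkpoint genes (left) and the tested genes of the pathway lists other than 1 that is not reported here (right); red marks an adjusted p under 0.05. Cd24a stands apart on the left at -1.25, and 9 genes to the right of 0 and 5 to the left are red on the right.

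Over all pathway lists 49 of 54 genes were tested, of which 10 rose and 5 fell, or 20.4% and 10.2%, against 5.44% and 5.4% of all genes. The lists were chosen with earlier results of these data known, so that share is no independent evidence. Their median log2 fold change was 0.24. With any 1 library left out, all 15 had the same sign and an unadjusted p below 0.05, but many lost the call. The 15 were called on these same libraries, so the kept sign and unadjusted p are no independent support. Leaving out an IgG library kept 2 of the 15 for IgG 1, 9 for IgG 2, 1 for IgG 3 and 0 for IgG 4. Leaving out an antiCD47 library kept 15 for antiCD47 1, 7 for antiCD47 2, 0 for antiCD47 3 and 14 for antiCD47 4.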

How the data were processed

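Per the labels' protocols, polyadenylated RNA from whole liver was sequenced as Illumina TruSeq libraries. The deposited table holds estimated counts per gene, whole numbers without normalization. Salmon 1.3.0, DESeq2 1.32.0 and GRCm39 were used per the submitters' processing notes, with no role stated for each. Per the file headers, the comparison table deposited by the authors gives each gene's log2 fold change, p-value before and after adjustment, mean signal after normalization and a score for ranking. Its reference group is not stated. For 94.4% of 14241 shared genes its sign matched antiCD47 minus IgG. Its p-values and signs alone were used.

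Columns were matched to samples by title, and 0 were left unused. Libraries of 1 group differed by a chi-square of at least 25.96 times its degrees of freedom, so none was counted as a repeat. In edgeR 4.0.16 under R 4.3.3, low genes were removed by filterByExpr, TMM gave the scaling, and all 8 libraries entered 1 fit of treatment, without a block. limma 3.58.1 and DESeq2 1.42.0 were alternatives, beside other scalings and filters, a replicate block, left-out libraries and an adjusted p of 0.1. The fit was tested on simulated data. Log2 CPM used a prior count of 2. Transcript lengths came from an annotation of an older build. Total counts set the counting precision.

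The 9 genes and all lists were chosen with earlier results of these data known. Named beside the 9 are pathway genes past an adjusted p of 0.05, the 2 with the smallest p of a list where none passed, and the 3 genes closest to a member by Pearson correlation, without predicted models. Other pathway genes named, such as the chaperones, were chosen after their values were seen. The single result of 1 pathway gene is not reported here, though it is part of the counts.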

Additional observations from a re-analysis of the deposited data

Results flagged for a closer look

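In 3 of 48 groups of 4 libraries, 1 library lay apart from the other 3 by more than Dixon's 95% limit; chance alone gives about 1 in 20 groups. Qpctl was at 12.5 CPM in antiCD47 2, and the other antiCD47 libraries were at 10.05 to 10.5 CPM. Sftpd was at 2.085 CPM in antiCD47 1 and at 1.13 to 1.29 CPM in the others. Src was at 7.40 CPM in IgG 4 and at 6.24 to 6.40 CPM in the other IgG libraries.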

How the results depend on the processing

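The number of the 9 genes past the threshold, 1, was 2 with no low count filter, by DESeq2, by limma voom with and without quality weights, with the replicate block and at an adjusted p of 0.1, and 0 to 2 when each library was left out. For the pathway genes, 15 became 25 with quality weights, 6 without IgG 2 and antiCD47 2, and 0 to 22 when each library was left out. Over all genes, 1678 became 3581 with library totals, 3174 by DESeq2, 4331 with quality weights, 1090 without IgG 2 and antiCD47 2, 3574 at an adjusted p of 0.1, and 2 to 3630 when each library was left out. The cause was not tested. Log2 fold changes turned sign with library totals for Cd47 (-0.0494), Ptpn6 (-0.0938), Ptpn11 (-0.0201) and Qpctl (-0.1487). Qpctl was at -0.0241 with upper quartile scaling and between -0.0335 and 0.0806 when each library was left out. Sirpa was at 0.0037 with DESeq2 size factors and by DESeq2, 0.0114 by limma voom, 0.0125 with the replicate block, and between -0.1129 and 0.0966 when each library was left out. Nothing in the labels says that a replicate number marks a pair. Deviations of same-numbered libraries correlated at 0.032, 0.157, -0.023 and 0.035, and no IgG library correlated best with its own number. With the replicate block Cd24a was at -1.32 (edgeR adjusted p = 0.0101) and Lrp1 at 0.45 (0.0365), and 17 pathway genes passed. The red cell partners of CD47 had too few counts to test.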
